A study of Mus musculus with 32 samples.

Results

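The 35 genes described here mark the immune cells of the mouse liver: resident Kupffer cells, recruited and lipid-associated macrophages, monocytes, cells that present antigen, and lymphocytes. They were taken as a named list and fall into 7 classes by what they mark, and all 35 had a sum among the 35523 genes of the deposited files. They were measured by RNA-seq in 32 liver libraries, 4 from each of 8 groups: WT and Nudt7-/- (KO) mice, males (M) and females (F), fed a control diet (CD, 10% of kcal from fat and 0% cholesterol) or a Western diet (WD, 41% of kcal from fat and 0.2% cholesterol) from 6 weeks of age until harvest at 17 to 20 weeks. The groups are abbreviated WTM-CD, WTM-WD, KOM-CD, KOM-WD, WTF-CD, WTF-WD, KOF-CD and KOF-WD. The KO mice lacked Nudt7, a peroxisomal enzyme that breaks down coenzyme A species, in the whole body. The deletion of exons 3 and 4 was made in FVB zygotes, came from a single founder and was backcrossed to C57BL/6J, the strain named in the labels of all groups, with WT littermates as controls. The labels do not say whether these mice were fed or fasted at harvest, nor whether any litter was shared, so p-values measure only the spread between these samples.

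Kupffer cells sit in the liver sinusoids, where they take up bacteria, debris and lipoproteins from portal blood, and they renew themselves locally. Monocytes drawn from the blood through the receptor Ccr2 can become macrophages, and under lipid load some of these take on a lipid-handling program marked by Trem2, Gpnmb, Cd9, Spp1 and Itgax. Antigen presentation on MHC class II, by macrophages, dendritic cells and B cells, shows extracellular peptides to T cells that carry Cd4, while T cells that carry Cd8a read peptides on MHC class I. In RNA from whole liver most transcripts come from hepatocytes, and fewer cells of a type cannot be told apart from less RNA per cell.

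The library totals ran from 10140048 to 15825078 estimated counts, with a median of 13000302. Levels are given as CPM, the count relative to the library's total after TMM scaling, and levels of different genes are compared only as TPM, which also divides by transcript length. On the TPM scale the most abundant member was Cd74, the invariant chain of MHC class II, with a median of 107 TPM over the 32 libraries, followed by the lysozyme gene Lyz2 at 88.3 TPM, Cd5l at 70.5 TPM and Clec4f at 67 TPM. Resident Kupffer cell and complement genes were well counted, and 19 of the 35 members had a median of at least 100 counts per library. By contrast 11 members had a median under 13 counts: Trem2, Gpnmb, Mmp12, Ly6c2, Ccl2, Cd3e, Cd3g, Cd8a, Nkg7, Cd79a and Ms4a1. These values carry a large counting error, and a single library with a few more cells of a rare type can move them. A gene was tested where at least 4 libraries of the fit had at least 10 counts. That left 34 members in the fits of all 32 libraries, where Cd8a, the T cell co-receptor, was the member left out, and 25 to 32 members in comparisons of 2 groups.

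Several libraries stood apart. In the library labelled replicate 1 of KOM-WD, lipid-associated macrophage genes were far above the other 3 libraries of its group. In replicate 1 of WTF-CD, B cell genes were high, and a list of 8 other B and plasma cell genes summed to 184 CPM against 8.52 to 35.1 CPM in the other CD libraries. In replicate 4 of WTM-CD, 6 members including Marco, Adgre1, C1qa and C1qc were far above the rest of the group. Transcripts of pancreatic acinar cells exceeded 10 times the median in 4 libraries, all from females. Nudt7 itself was lower in every KO library than in every WT library within each of the 4 combinations of sex and diet, with medians of 51.3 CPM in KO and 290 CPM in WT, and KO libraries kept 21.2 to 249 CPM of it.

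The diet changed the largest share of these genes. In an edgeR quasi-likelihood model of the 8 groups, the mean of the 4 diet effects passed an adjusted p of 0.05 for 16 of the 34 members tested (47.1%), against 19.4% of the 13539 genes tested. Of these members 13 were higher on the WD, where 8.63% of all genes were called higher, and 3 were lower, where 10.8% of all genes were called lower. The median log2 fold change of the 34 members was 0.33, beside -0.01 for all genes. The genes that rose were the Kupffer cell genes Cd5l and Vsig4, the macrophage gene Cd68, and Trem2, Spp1, Itgax and Mmp12 among lipid-associated genes. Ccr2 and Ccl2 of monocyte recruitment, the class II genes H2-Aa and H2-Eb1, and Il1rn rose too. The pan-leukocyte gene Ptprc, which macrophages also carry, was the only member of the lymphocyte and leukocyte class that rose. Trem2 and Ccl2 passed the filter on low counts only through the WD libraries. Cd163, Cd9 and the B cell gene Cd79a fell. Hepatocyte markers moved with the diet as well: a list of 8 hepatocyte genes summed to 76020 to 108575 CPM in the 16 CD libraries and 50581 to 92145 CPM in the 16 WD libraries, and 6 of the 8 were called lower. A list of 6 adipocyte markers was higher on the WD in males, with medians of 14.2 and 30.6 CPM in WT. In KO males the medians were 7.25 and 81 CPM. In females its medians were lower on the WD, with 21.9 and 11.4 CPM in WT and 16.3 and 8.31 CPM in KO. The female ranges overlapped, with 6.4 to 27.4 CPM on the CD and 9 to 13.4 CPM on the WD in WT. KO females had 11 to 34.7 CPM on the CD and 6.37 to 61.3 CPM on the WD. The part of either list in the changes of the members was not tested.

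**Figure D1:**
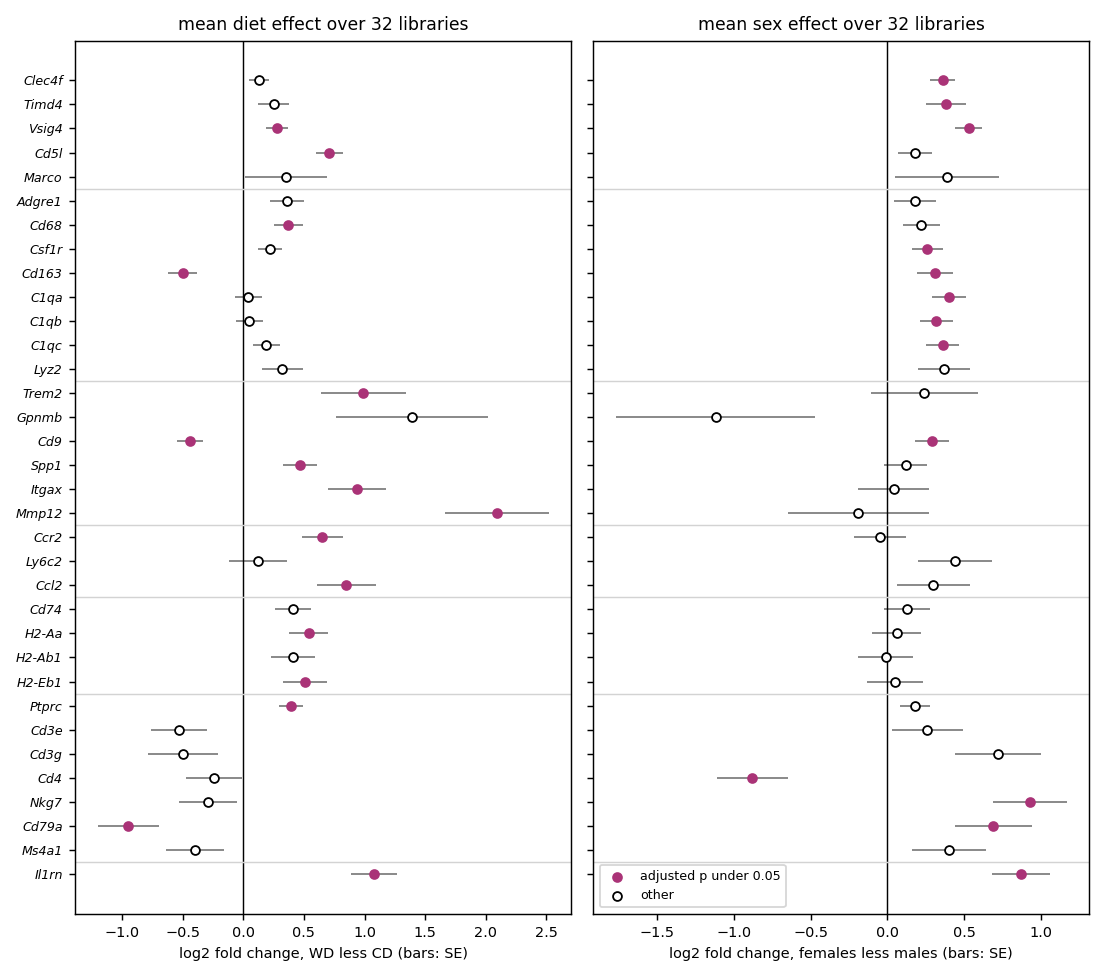
Log2 fold changes with standard errors (bars) of the 34 members tested, for the mean diet effect (WD less CD, left) and the mean sex effect (females less males, right), with grey lines between classes and filled points for an adjusted p under 0.05. On the left, Mmp12 (2.09) is farthest to the right and Cd79a (-0.95) farthest to the left, and on the right Cd4 (-0.88) is the filled point below 0.

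Among resident Kupffer cell genes, Cd5l changed with the diet while Clec4f did not pass the test. Cd5l (ENSMUSG00000015854, chr3:87357881-87371073, GRCm38) encodes a secreted scavenger protein that macrophages make under control of liver X receptors. Its level in males fed the CD was 71.9, 72.7, 59.4 and 118 CPM in WT and 99.6, 112, 84.5 and 112 CPM in KO, and on the WD it was 128, 147, 127 and 87.8 CPM in WT and 198, 88.8, 146 and 140 CPM in KO. Females fed the CD had 97.6, 95.7, 96.5 and 99.2 CPM in WT and 60.9, 101, 80.3 and 106 CPM in KO, and those fed the WD had 182, 196, 165 and 121 CPM in WT and 172, 179, 199 and 128 CPM in KO. In females no library on the WD overlapped one on the CD, in either genotype, whereas in males the lowest WD libraries lay within the CD range. Of all genes tested, 2.59% lay wholly higher on the WD in WT females and 2.55% in KO females. The mean diet effect on Cd5l was a log2 fold change of 0.71 ± 0.11 (SE, 1.63-fold, adjusted p = 4.66e-05, edgeR), the smallest p among the members. Cd5l kept this call without any 1 of the 32 libraries and under every alternative tried.

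Clec4f, a C-type lectin found on Kupffer cells and no other macrophage, had 73.9 to 129 CPM on the CD (median 104, n = 16) and 68.5 to 172 CPM on the WD (median 108, n = 16), a log2 fold change of 0.13 ± 0.08 (adjusted p = 0.284, edgeR). Vsig4, a complement receptor of resident macrophages, rose by a smaller amount than Cd5l, from a median of 30.1 CPM (21.3 to 36.4) to 31.9 CPM (18.8 to 62.1), with a log2 fold change of 0.28 ± 0.09 (adjusted p = 0.0281). The wide WD range of Vsig4 came from females, which are described with the sex effect. Timd4, a receptor for phosphatidylserine on dying cells, and the scavenger receptor Marco had log2 differences of 0.25 ± 0.13 and 0.35 ± 0.34 that did not pass (adjusted p = 0.171 and 0.504). Marco varied widely within a group, with 3.96, 30.1, 6.13 and 7.12 CPM in the 4 libraries of WTF-WD.

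The ratio of Cd5l to Clec4f separated the diets. This ratio was formed after the values were seen and is given with no test. It lay between 0.591 and 1.07 in the 16 CD libraries and between 1.16 and 2.63 in the 16 WD libraries, with no overlap. The ratio of C1qa to Clec4f overlapped widely, with 0.284 to 0.574 on the CD and 0.267 to 0.619 on the WD.

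Of the 8 general macrophage genes, Cd68 rose, Cd163 fell and 6 did not pass the test. Cd163 (ENSMUSG00000008845, chr6:124304656-124330527) encodes the scavenger receptor for haptoglobin and hemoglobin complexes. Its levels were 19.6, 24.4, 20.1 and 27.1 CPM in WTM-CD and 13.4, 18.2, 17.3 and 16.6 CPM in WTM-WD, with no overlap. In KO males they were 31.3, 27.1, 31.9 and 34.9 CPM on the CD and 8.37, 14, 20.1 and 15.6 CPM on the WD, again with no overlap. Females fed the CD had 32.9, 17.3, 23.8 and 26.2 CPM in WT and 28.3, 29.8, 19.1 and 39.2 CPM in KO, and those fed the WD had 15.6, 23.4, 16.1 and 18 CPM in WT and 29.8, 27.5, 42 and 20.5 CPM in KO. The female groups overlapped, and in KO females the 2 means were nearly equal (29.1 ± 8.23 and 30 ± 8.95 CPM, SD, n = 4). The mean diet effect on Cd163 was -0.50 ± 0.12 (adjusted p = 0.00326), and the female diet effect less the male one was 0.58 ± 0.23, which did not pass (adjusted p = 0.321).

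Cd68, a lysosomal glycoprotein of macrophages, had a median of 9.04 CPM on the CD (6.23 to 12) and 12.4 CPM on the WD (6.49 to 21.7), with a log2 fold change of 0.37 ± 0.12 (adjusted p = 0.027). Without the 4 libraries that held pancreatic transcripts it was 0.36 ± 0.13 (adjusted p = 0.0525). The 3 chains of complement C1q, which Kupffer cells make in quantity, differed little between diets: 0.04 ± 0.11 for C1qa, 0.05 ± 0.11 for C1qb and 0.19 ± 0.11 for C1qc on the log2 scale (adjusted p of 0.207 to 0.83). Adgre1 (the F4/80 antigen), Csf1r (the receptor for macrophage colony-stimulating factor) and Lyz2 had log2 differences of 0.36 ± 0.14, 0.22 ± 0.10 and 0.32 ± 0.17 and did not pass (adjusted p = 0.0652, 0.106 and 0.19).

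**Figure D2:**
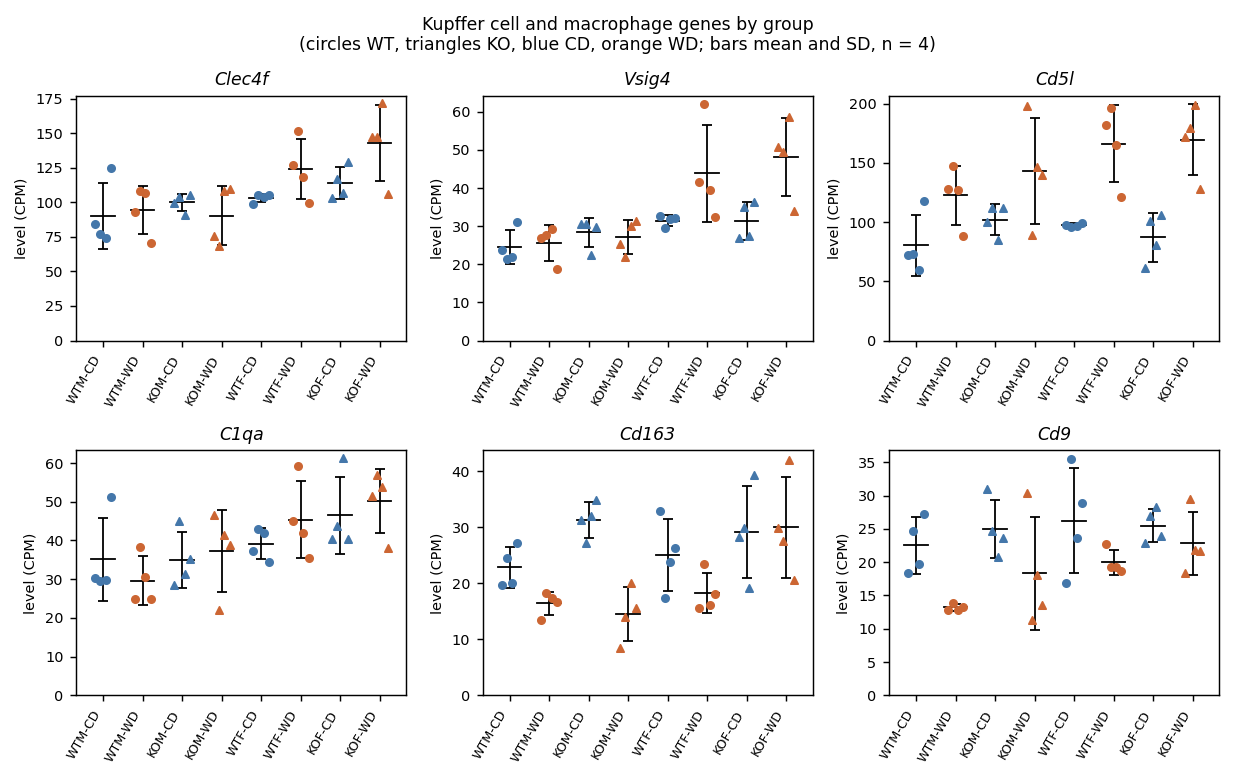
Levels in CPM of Clec4f, Vsig4, Cd5l, C1qa, Cd163 and Cd9 in each of the 32 libraries by group, with circles for WT, triangles for KO, blue for the CD, orange for the WD, and bars for mean and SD (n = 4). Cd5l is higher in the orange than in the blue points of each pair of groups on average, and Cd163 in KO males falls from 31.3 to 14.5 CPM (group means) with no overlap.

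The lipid-associated macrophage genes gave the largest fold changes and the most uneven data. Mmp12 (ENSMUSG00000049723, chr9:7344381-7369499), a macrophage elastase, was measured at 1.04, 0.366, 0.356 and 0.57 CPM in WTM-CD and at 0.569, 1.02, 1.35 and 1.32 CPM in WTM-WD. In KO males it was 0.456, 0.747, 0 and 0.316 CPM on the CD and 55, 4.68, 4.17 and 12.3 CPM on the WD. Thus every KOM-WD library lay above every other male library, and replicate 1 of that group was more than 4 times the next. Females had 0.446 to 1.13 CPM in WTF-CD, 1.1 to 2.16 CPM in WTF-WD, 0.568 to 1.7 CPM in KOF-CD and 0.637, 0.661, 1.56 and 5.7 CPM in KOF-WD. Over all groups Mmp12 rose by 2.09 ± 0.43 on the log2 scale (4.26-fold, adjusted p = 0.00126), and without replicate 1 of KOM-WD by 1.74 ± 0.32 (adjusted p = 0.000417). A list of 7 stellate cell genes summed to 548 CPM at its highest in KOM-WD and to at most 354 CPM in the other male groups, and its part in the result was not tested.

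Gpnmb, a transmembrane glycoprotein of lipid-laden macrophages, was at 62.7 CPM in replicate 1 of KOM-WD and at 2, 1.31 and 1.68 CPM in the other 3 libraries of that group. All 28 other libraries had at most 1.03 CPM. Its mean diet effect was 1.39 ± 0.63 (adjusted p = 0.126), and without replicate 1 of KOM-WD it was 0.57 ± 0.26 (adjusted p = 0.129). In these fits Gpnmb passed the filter on low counts only through the WD libraries. Itgax (Cd11c), an integrin of macrophages and dendritic cells, was at 12.8, 2.46, 2.47 and 3.1 CPM in KOM-WD and at 0.608, 1.08, 1.48 and 0.526 CPM in KOM-CD, with no overlap. In KO males 5.26% of all genes tested lay wholly higher on the WD. In that pair Mmp12, Gpnmb and Itgax passed the filter on low counts only through the WD libraries. Over all groups Itgax rose by 0.94 ± 0.24 (adjusted p = 0.00576), and by 0.71 ± 0.18 without replicate 1 of KOM-WD (adjusted p = 0.00661).

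Trem2, a lipid receptor of macrophages, rose from a median of 0.402 CPM (0.158 to 1.25) to 0.726 CPM (0.234 to 5.58), a log2 fold change of 0.99 ± 0.35 (adjusted p = 0.0474). That call was lost when any 1 of 20 of the 32 libraries was left out. Without replicate 1 of KOM-WD, where Trem2 was 5.58 CPM, the log2 fold change was 0.61 ± 0.28 (adjusted p = 0.127). Spp1 (osteopontin), which bile duct cells also make, went from a median of 31.4 CPM (24.2 to 39.8) to 39.1 CPM (26.5 to 94.4), with a log2 fold change of 0.47 ± 0.14 (adjusted p = 0.0195).

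Cd9, a tetraspanin found on many cell types, fell where 4 others of its class rose. In WT males it was 18.3, 24.7, 19.7 and 27.3 CPM on the CD and 12.8, 13.9, 12.8 and 13.3 CPM on the WD, with no overlap, as for 10.7% of all genes tested. Its mean diet effect was -0.44 ± 0.11 (adjusted p = 0.0054). Without the 4 libraries with pancreatic transcripts it was -0.32 ± 0.12 (adjusted p = 0.0572). Replicate 1 of KOM-WD, at 30.4 CPM, was the highest of the WD libraries for Cd9 too, while the other 3 of its group had 11.3, 18 and 13.6 CPM.

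Of the 3 monocyte recruitment genes, Ccr2 and its chemokine ligand Ccl2 rose, and Ly6c2, which marks inflammatory monocytes, did not pass the test. Ccr2 was at 1.68 to 3.64 CPM on the CD (median 2.16) and at 1.71 to 9.17 CPM on the WD (median 3.37), with a log2 fold change of 0.65 ± 0.17 (adjusted p = 0.0061). It was at 9.17, 2.3, 3.94 and 5.7 CPM in KOM-WD and at 3.24, 4.59, 5.01 and 2.27 CPM in WTF-WD, the groups that held the 3 highest libraries. Ccl2 was at 3.67, 0.461, 2.16 and 1.59 CPM in KOM-WD and at 0.828, 1.5, 1.41 and 2.01 CPM in KOF-WD, where the other 6 groups had at most 0.911 CPM. Averaged over the groups, the diet effect on Ccl2 was 0.85 ± 0.24 (adjusted p = 0.0114). The diet effect in KO less that in WT was 1.54 ± 0.48 for Ccl2, with an adjusted p of 0.459, so a difference between genotypes was not called. Ly6c2 had a log2 difference of 0.12 ± 0.24 (adjusted p = 0.775) at medians of 0.551 and 0.629 CPM.

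**Figure D3:**
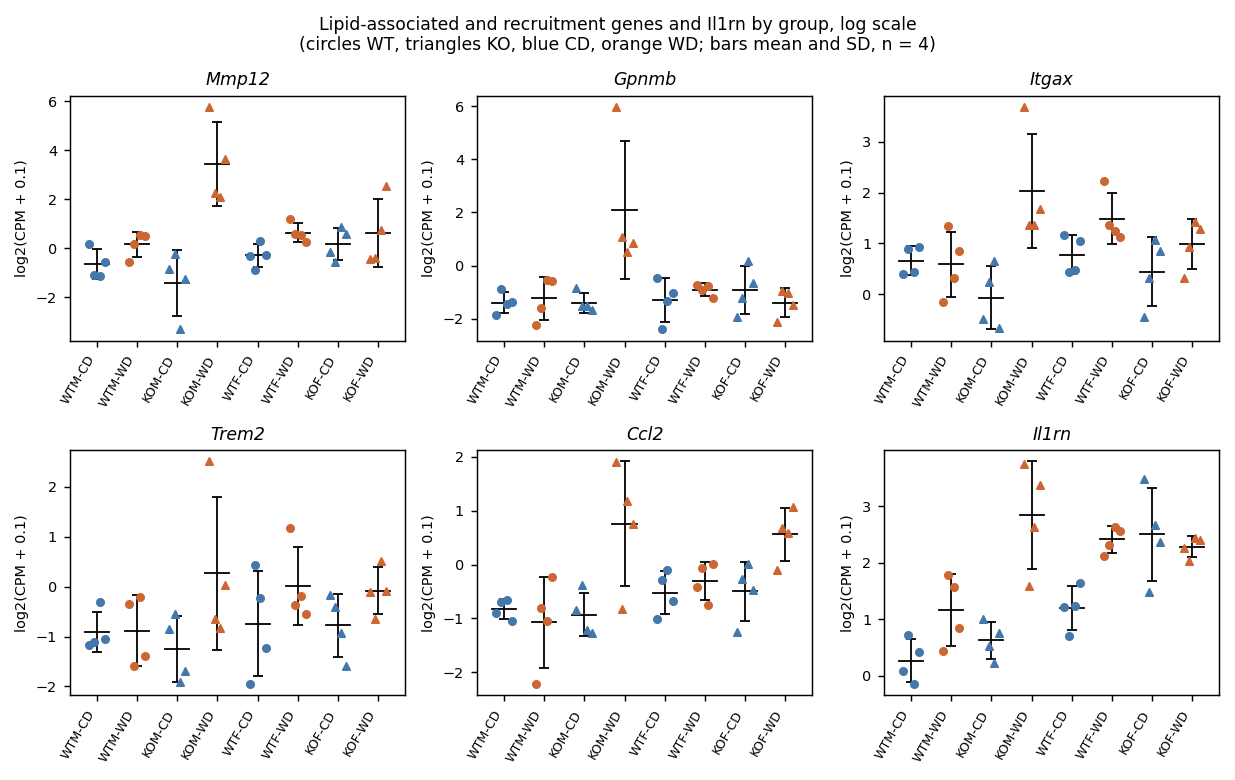
Log2 of CPM plus 0.1 for Mmp12, Gpnmb, Itgax, Trem2, Ccl2 and Il1rn in each of the 32 libraries by group, with circles for WT, triangles for KO, blue for the CD, orange for the WD, and bars for mean and SD (n = 4). The topmost orange triangle of KOM-WD is replicate 1, at 62.7 CPM of Gpnmb and 55 CPM of Mmp12.

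Il1rn (ENSMUSG00000026981, chr2:24336853-24351494), which encodes the antagonist of the interleukin-1 receptor and is made by macrophages, neutrophils and hepatocytes, moved with both diet and sex. Males fed the CD had 0.953, 1.54, 0.8 and 1.23 CPM in WT and 1.9, 1.33, 1.07 and 1.58 CPM in KO, and on the WD they had 1.25, 3.36, 2.88 and 1.7 CPM in WT and 13.4, 2.92, 6.11 and 10.3 CPM in KO. In females the CD values were 2.21, 1.52, 2.26 and 3.02 CPM in WT and 11.1, 2.68, 6.26 and 5.08 CPM in KO, and the WD values were 4.25, 4.89, 6.13 and 5.83 CPM in WT and 4.71, 3.97, 5.31 and 5.18 CPM in KO. The diets did not overlap in KO males and in WT females, they overlapped in WT males, and in KO females the WD values lay inside the CD range. Of all genes tested, 5.26% lay wholly higher on the WD in KO males and 2.59% in WT females. The mean diet effect on Il1rn was 1.08 ± 0.19 on the log2 scale (2.11-fold, adjusted p = 0.000299) and it held without any 1 library. For Il1rn the female diet effect less the male one was -1.34 ± 0.39 with an adjusted p of 0.158 by edgeR and 0.0467 by DESeq2.

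All 4 MHC class II members had log2 differences above 0 for the WD, and H2-Aa and H2-Eb1 passed the test. H2-Aa, the alpha chain of I-A, was at 27.9, 36.3, 26.3 and 40.5 CPM in WTM-CD and 31.3, 78.7, 20.1 and 49.1 CPM in WTM-WD. KO males had 21.1, 36.4, 36.5 and 32.6 CPM on the CD and 86.8, 30.9, 57 and 56 CPM on the WD. Females had 45.3, 31.9, 31.6 and 42.6 CPM in WTF-CD, 42.9, 62.3, 55.7 and 46.4 CPM in WTF-WD, 25.4, 33.1, 56.5 and 25.6 CPM in KOF-CD, and 39.7, 52, 56 and 37.6 CPM in KOF-WD. The diets overlapped in every pair of groups for H2-Aa, and the range was widest in WTM-WD. On average the diet effect was 0.54 ± 0.16 for H2-Aa (adjusted p = 0.0211) and 0.51 ± 0.18 for H2-Eb1, the beta chain of I-E (adjusted p = 0.0468). The H2-Eb1 call was lost when any 1 of 21 of the 32 libraries was left out, with 0.46 ± 0.18 (adjusted p = 0.0741) without replicate 1 of KOM-WD. Cd74, with 54.7 to 124 CPM on the CD (median 81) and 43.7 to 167 CPM on the WD (median 109), had a log2 difference of 0.41 ± 0.15 (adjusted p = 0.0558). H2-Ab1, the beta chain of I-A, had 0.41 ± 0.18 (adjusted p = 0.113).

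Class II genes share promoter elements, an X box and a Y box, at which a complex of factors recruits the coactivator Ciita. H2-Aa and H2-Eb1 are shown here because both were called and rose by like amounts. The other class II members, Cd74 and H2-Ab1, had no promoter entry and could not be shown. The 100 bases before each start are from the RefSeq promoter table of build GRCm38.p6, which held 27 of the 35 members, and lie at chr17:34287824-34287923 (minus strand) for H2-Aa and chr17:34305767-34305866 (plus strand) for H2-Eb1. Capitals mark the letters GCAACT, which fall within the X box, and CTGATTGG, the Y box with its inverted CCAAT, both searched on both strands and chosen after the data were seen.
H2-Aa: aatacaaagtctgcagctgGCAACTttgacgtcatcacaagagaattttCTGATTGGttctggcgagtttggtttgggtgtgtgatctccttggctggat
H2-Eb1: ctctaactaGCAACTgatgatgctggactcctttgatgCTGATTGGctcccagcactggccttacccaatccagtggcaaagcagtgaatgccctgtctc
The Y box letters begin 51 bases before the start in H2-Aa and 62 bases in H2-Eb1, and the GCAACT letters begin 81 and 91 bases before it. Of 32817 promoter windows of 300 bases, 4.09% held CTGATTGG and 10.9% held GCAACT, and 22 windows (0.067%) held both in the 100 bases before the start. These matches describe the letters and say nothing of which factor was bound.

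Among lymphocyte genes, Cd79a fell and Ptprc rose, and the rest did not pass at very low counts. Of the 7 members of the lymphocyte and leukocyte class that were tested, 6 had log2 differences below 0 for the WD, with a median of -0.40, and 1 of these 6, Cd79a, passed the test. Cd79a, part of the B cell antigen receptor, was at 4.49, 2.41, 0.753 and 0.986 CPM in WTF-CD and at 0.504, 0.489, 0.423 and 0.583 CPM in WTF-WD, with no overlap. KO males had 0.761, 0.83, 0.823 and 1.37 CPM on the CD and 0.558, 0.537, 0.309 and 0.419 CPM on the WD, also with no overlap. Of all genes tested, 2.43% lay wholly lower on the WD in WT females and 5.69% in KO males. In both of these pairs Cd79a passed the filter on low counts only through the CD libraries. In WT males the values were 1.3, 0.659, 0.178 and 0.949 CPM on the CD and 0.455, 1.17, 0.192 and 0.283 CPM on the WD, and in KO females 0.953, 1.62, 1.09 and 1 CPM and 0.891, 1.2, 1.02 and 0.842 CPM, and both pairs overlapped. The mean diet effect on Cd79a was -0.95 ± 0.25 (adjusted p = 0.00788), and without replicate 1 of WTF-CD it was -0.79 ± 0.23 (adjusted p = 0.0148). Ms4a1 (CD20), another B cell gene, had -0.40 ± 0.24 (adjusted p = 0.256) and, without that library, -0.13 ± 0.18 (adjusted p = 0.671).

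Cd3e, a chain of the T cell receptor complex, had 0.433, 1.61, 0.8 and 0.57 CPM in WTM-CD, 0.455, 0.547, 0.384 and 1.13 CPM in WTM-WD, 0.38, 1.08, 0.823 and 0.526 CPM in KOM-CD, and 1.04, 0.537, 0.696 and 0.419 CPM in KOM-WD. In females it had 2.21, 1.52, 0.602 and 0.591 CPM in WTF-CD, 0.288, 0.979, 0.705 and 0.972 CPM in WTF-WD, 0.715, 1.14, 0.972 and 1.46 CPM in KOF-CD, and 0.573, 0.601, 0.625 and 0.453 CPM in KOF-WD. These correspond to 4 to 28 counts in a library, and the groups overlapped in all but the KO females. In KO females 3.29% of all genes tested lay wholly lower on the WD. The log2 difference for the WD was -0.53 ± 0.23 for Cd3e and -0.50 ± 0.29 for Cd3g, and neither passed (adjusted p = 0.107 and 0.226). Ptprc (CD45), which all leukocytes carry and macrophages carry too, rose by 0.39 ± 0.10 (adjusted p = 0.00878), from a median of 17.5 CPM (11.2 to 28.3) to 21.8 CPM (14.1 to 31.3). With offsets for transcript length Ptprc had 0.30 ± 0.11 (adjusted p = 0.0656). Cd4 and the cytotoxic granule gene Nkg7 had log2 differences of -0.24 ± 0.23 and -0.29 ± 0.24 (adjusted p = 0.495 and 0.415).

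**Figure D4:**
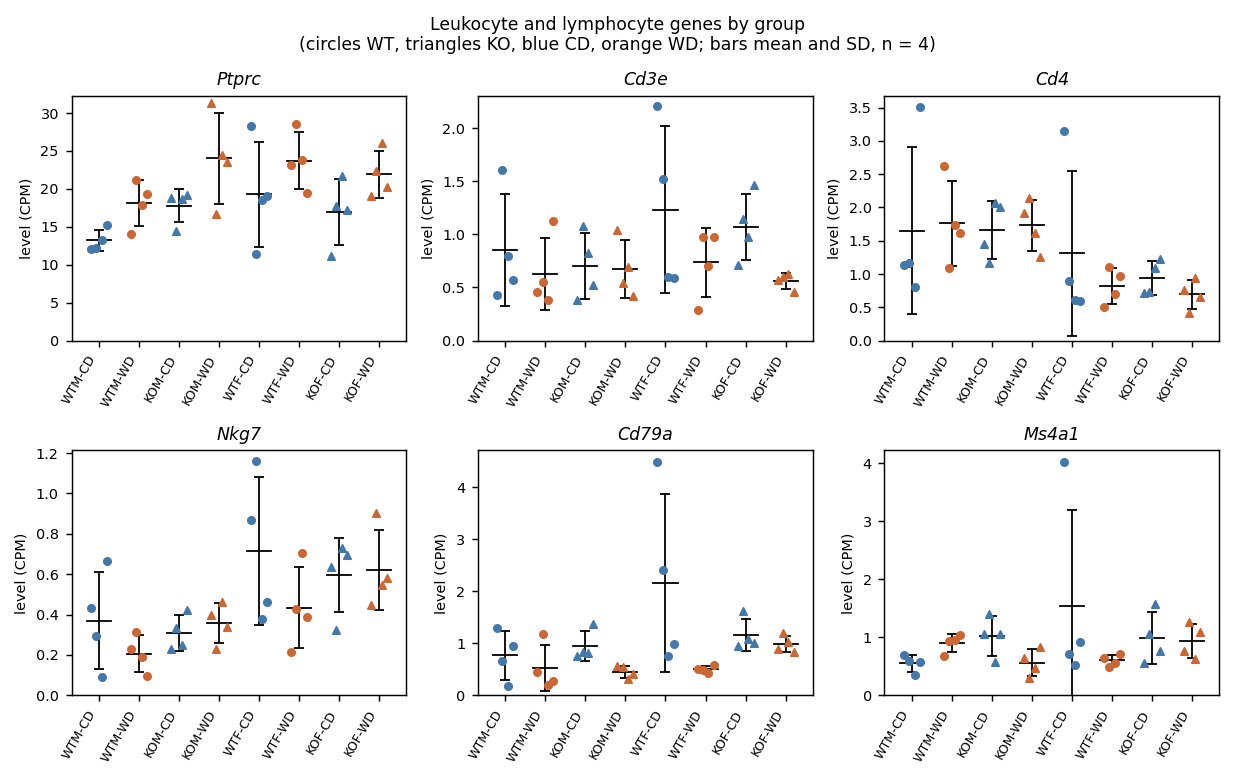
Levels in CPM of Ptprc, Cd3e, Cd4, Nkg7, Cd79a and Ms4a1 in each of the 32 libraries by group, with circles for WT, triangles for KO, blue for the CD, orange for the WD, and bars for mean and SD (n = 4). Replicate 1 of WTF-CD stands at the top for Cd79a (4.49 CPM) and Ms4a1 (4.02 CPM).

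Within single groups of the same sex and genotype, with 4 against 4 libraries, fewer members passed. In WT males, where 13.7% of all genes were called, 3 of 25 members were called for the diet: Cd163 (-0.45 ± 0.13, adjusted p = 0.0392) and Cd9 (-0.75 ± 0.13, adjusted p = 0.0057) fell, and Ptprc (0.48 ± 0.13, adjusted p = 0.0334) rose. The share of members called in this pair was no higher than that of all genes. The calls of Cd163 and Ptprc were each lost without any 1 of 6 of the 8 libraries, and the Cd9 call was kept. In KO males, where 2.6% of all genes were called, Il1rn rose (2.49 ± 0.46, 5.6-fold, adjusted p = 0.0259) and Cd163 fell (-1.09 ± 0.21, adjusted p = 0.0289) of 28 members. In KO males the adipocyte list summed to 6.97 to 9.39 CPM on the CD and 51.2 to 118 CPM on the WD, and the hepatocyte list to 76020 to 106088 CPM and 50581 to 73429 CPM, neither with overlap, and their part in these changes was not tested. Leaving out any 1 KOM-CD library or replicate 4 of KOM-WD left no member called, whereas 4 members were called without replicate 1 of KOM-WD and 7 without replicate 2. In WT females, where 0.0785% of all genes were called, 0 of 30 members passed edgeR and 12 had an unadjusted p under 0.05. DESeq2 called 3 in WT females, namely Cd5l, Cd79a and Il1rn, and Cd79a passed the filter on low counts only through the CD libraries. Here and below, counts at an unadjusted p under 0.05 or called by DESeq2 have no matching share of all genes beside them. They are not read as a result about the members. In KO females, where 0.125% of all genes were called, 0 of 32 members passed edgeR, 9 had an unadjusted p under 0.05 and DESeq2 called Vsig4 and Cd5l. Cd5l had log2 differences of 0.62 ± 0.23 and 0.77 ± 0.14 in WT (males, then females) and 0.51 ± 0.21 and 0.96 ± 0.18 in KO, above 0 in all 4 but past the adjusted threshold in none (adjusted p from 0.088 to 0.239).

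Females had higher levels than males of 3 of the 5 Kupffer cell genes (Clec4f, Timd4 and Vsig4) and of the 3 C1q genes. The mean sex effect passed for 13 of 34 members (38.2%), against 31.6% of all genes, with 12 higher in females, where 15.9% of all genes were called higher, and 1 lower, where 15.6% were called lower. The share of members called was thus close to that of all genes, and their median log2 fold change was 0.28 beside 0.02 for all genes. Vsig4 differed with the smallest p: the 16 males had 18.8 to 31.3 CPM (median 27.3) and the 16 females 26.8 to 62.1 CPM (median 34.5), a log2 fold change of 0.53 ± 0.09 (1.44-fold, adjusted p = 3.44e-05). By group it was 23.7, 21.3, 21.9 and 31 CPM in WTM-CD, 26.9, 27.7, 29.2 and 18.8 CPM in WTM-WD, 30.6, 30.6, 22.5 and 29.7 CPM in KOM-CD and 25.4, 21.9, 30.1 and 31.3 CPM in KOM-WD. In females it was 32.6, 29.4, 31.8 and 32.1 CPM in WTF-CD, 41.6, 62.1, 39.6 and 32.4 CPM in WTF-WD, 26.8, 35, 27.5 and 36.4 CPM in KOF-CD and 50.7, 49.5, 58.6 and 33.9 CPM in KOF-WD. On the WD the sexes did not overlap in either genotype, where 7.95% (WT) and 8.54% (KO) of all genes tested lay wholly higher in females. For Vsig4 the female diet effect less the male one was 0.55 ± 0.18, which did not pass (adjusted p = 0.217).

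Clec4f was 1.28-fold higher in females (log2 fold change 0.36 ± 0.08, adjusted p = 0.0014). Males had 84.6, 76.8, 73.9 and 125 CPM in WTM-CD, 92.9, 108, 107 and 70.7 CPM in WTM-WD, 99.8, 104, 91.1 and 105 CPM in KOM-CD and 75.3, 68.5, 108 and 110 CPM in KOM-WD. Females had 98.8, 105, 104 and 105 CPM in WTF-CD, 127, 152, 118 and 99.7 CPM in WTF-WD, 103, 117, 107 and 129 CPM in KOF-CD and 147, 147, 172 and 106 CPM in KOF-WD, so the sexes overlapped and no female library was below 98.8 CPM. Timd4 had 6.4 to 12.8 CPM in males (median 8.81) and 7.7 to 20.2 CPM in females (median 10.7), with a log2 fold change of 0.38 ± 0.13 (adjusted p = 0.0211). Cd5l and Marco had log2 differences of 0.18 ± 0.11 and 0.39 ± 0.34 between sexes and did not pass (adjusted p = 0.201 and 0.392).

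All 3 C1q chains were higher in females, by 0.40 ± 0.11 for C1qa (adjusted p = 0.00481), 0.32 ± 0.11 for C1qb (adjusted p = 0.0314) and 0.36 ± 0.11 for C1qc (adjusted p = 0.0112). C1qa was at 30.2, 29.4, 29.7 and 51.2 CPM in WTM-CD, 24.8, 38.2, 30.5 and 24.9 CPM in WTM-WD, 28.4, 44.9, 31.4 and 35.3 CPM in KOM-CD and 46.6, 22, 41.4 and 38.8 CPM in KOM-WD. It was at 37.4, 43, 41.9 and 34.5 CPM in WTF-CD, 44.9, 59.2, 42 and 35.4 CPM in WTF-WD, 40.5, 43.6, 61.3 and 40.5 CPM in KOF-CD and 51.6, 56.9, 53.8 and 38.1 CPM in KOF-WD. The male and female ranges overlapped for all 3 chains, and the male values of C1qb (20.3 to 52.3 CPM) and C1qc (23.8 to 51.9 CPM) reached as low as 20.3 CPM where no female was below 31.9 CPM. The C1qb call was lost without any 1 of 6 libraries (replicates 1 and 2 of WTM-CD, replicate 3 of KOM-CD, replicate 3 of KOF-CD, replicate 2 of WTF-WD and replicate 2 of KOF-WD), with an adjusted p of at most 0.0573.

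Csf1r (0.26 ± 0.10, adjusted p = 0.0406), Cd163 (0.31 ± 0.12, adjusted p = 0.0423) and Cd9 (0.29 ± 0.11, adjusted p = 0.0441) were also higher in females but near the threshold, and each of these 3 calls was lost without any 1 of 17, 17 and 21 of the 32 libraries. Csf1r had 39.6 to 77.5 CPM in males (median 56.3) and 42.7 to 98.6 CPM in females (median 63.9). Il1rn was 1.83-fold higher in females (0.87 ± 0.19, adjusted p = 0.00101), with medians of 1.64 and 4.8 CPM. For the 4 class II genes the log2 differences between sexes were -0.01 to 0.13, and 0 were called by edgeR, 0 had an unadjusted p under 0.05 and DESeq2 called 0. Without replicate 3 of KOM-CD, 8 members were called for sex in place of 13.

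Among lymphocyte genes, Nkg7 and Cd79a were higher in females and Cd4 was lower. Cd4 was at 1.13, 1.17, 0.8 and 3.51 CPM in WTM-CD, 2.62, 1.09, 1.73 and 1.61 CPM in WTM-WD, 1.45, 1.16, 2.06 and 2 CPM in KOM-CD and 1.91, 2.15, 1.62 and 1.26 CPM in KOM-WD. Females had 3.15, 0.892, 0.602 and 0.591 CPM in WTF-CD, 0.504, 1.1, 0.705 and 0.972 CPM in WTF-WD, 0.715, 0.73, 1.09 and 1.23 CPM in KOF-CD and 0.764, 0.421, 0.937 and 0.648 CPM in KOF-WD. Only replicate 1 of WTF-CD rose above 1.23 CPM among the females. The mean sex effect on Cd4 was -0.88 ± 0.23 (1.84-fold lower in females, adjusted p = 0.00375), and without that library it was -1.11 ± 0.20 (adjusted p = 6.89e-05). Cd4 is carried by T helper cells and also by some macrophages and dendritic cells, and the T cell genes Cd3e and Cd3g had log2 differences of 0.26 ± 0.23 and 0.72 ± 0.28 toward females (adjusted p = 0.414 and 0.0525). Nkg7 had 0.0889 to 0.664 CPM in males (median 0.303) and 0.216 to 1.16 CPM in females (median 0.565). Its log2 fold change was 0.93 ± 0.24 (adjusted p = 0.00319, edgeR). Counts ran from 1 to 15 a library, and Nkg7 passed the filter on low counts only through female libraries. Cd79a had 0.69 ± 0.25 (adjusted p = 0.0366), and the call was lost without any 1 of 12 libraries, with 0.53 ± 0.23 (adjusted p = 0.082) without replicate 1 of WTF-CD.

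The libraries with pancreatic acinar transcripts were replicates 2 and 4 of WTF-CD, replicate 3 of KOF-CD and replicate 4 of WTF-WD, with 393 to 5242 CPM over a list of 10 acinar genes where the median of the 32 libraries was near 15 CPM. Without them 9 members were called for sex, and Timd4 (0.33 ± 0.14, adjusted p = 0.0749), C1qb (0.33 ± 0.13, adjusted p = 0.0514) and Cd9 (0.19 ± 0.12, adjusted p = 0.22) were no longer called, while Nkg7 was no longer tested. Clec4f (0.38 ± 0.09), Vsig4 (0.58 ± 0.10) and C1qa (0.39 ± 0.11) kept their size and call. Sinusoidal endothelial markers moved with sex as well, with 3 of 7 called higher in females and sums of 297 to 384 CPM in males and 294 to 442 CPM in females (medians 349 and 393). Stellate cell markers, with 2 of 7 called higher in females, summed to 296 to 548 CPM in males and 299 to 530 CPM in females (medians 328 and 401). The part of either list in the result was not tested.

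Between sexes within a genotype and diet, the calls were fewer. In WT mice on the CD, where 2.24% of all genes were called, 0 of 26 members passed edgeR, 4 had an unadjusted p under 0.05 and DESeq2 called 0. In WT mice on the WD, where 9.64% were called, 4 of 27 members were higher in females: Vsig4 (0.80 ± 0.21, adjusted p = 0.0433), C1qb (0.64 ± 0.17, adjusted p = 0.0464), Cd9 (0.61 ± 0.10, adjusted p = 0.00296) and Il1rn (1.18 ± 0.27, adjusted p = 0.0208). Leaving out replicate 4 of WTF-WD, a library with pancreatic transcripts, raised this count to 10, and leaving out replicate 4 of WTM-WD or replicate 3 of WTF-WD lowered it to 1. Among KO mice the share of members called was below that of all genes on either diet. In KO mice on the CD, where 6.66% were called, Il1rn was the only member of 28 that passed, at 2.09 ± 0.40 (4.25-fold, adjusted p = 0.0123). In KO mice on the WD, where 9.66% were called, Vsig4 was higher (0.82 ± 0.17, adjusted p = 0.013) and Cd4 lower (-1.34 ± 0.31, adjusted p = 0.0202) in females, of 32 members. Both calls were lost without replicate 2 of KOF-WD, and 4 members were called without replicate 2 of KOM-WD or replicate 4 of KOF-WD. For Il1rn in KO mice on the WD the log2 difference was -0.78 ± 0.40 (adjusted p = 0.266), against 2.09 on the CD.

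No member was called for the deletion of Nudt7 by edgeR. The mean genotype effect was called for 0 of 34 members and for 0.0886% of all genes, 6 members had an unadjusted p under 0.05, and DESeq2 called Il1rn alone (0.88 ± 0.20, adjusted p = 0.00452). By edgeR Il1rn had 0.87 ± 0.20 (adjusted p = 0.098), and 1 member was called when replicate 2 of KOM-WD or replicate 2 of KOF-CD was left out. The median log2 fold change of the 34 members was 0.17, with 31 above 0, beside 0.00 for all genes. Leaving out replicate 1 of KOM-WD alone put 24 above 0 and 10 below, with a median of 0.12.

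By pair of groups, 0 of 25 members passed in males fed the CD, where 0.00814% of all genes were called, with 3 at an unadjusted p under 0.05 and 0 called by DESeq2. In males fed the WD, where 0.0162% of all genes were called, edgeR called 0 of 27, 5 had an unadjusted p under 0.05 and DESeq2 called Mmp12 (4.17 ± 0.91, adjusted p = 0.00305) and Il1rn (1.83 ± 0.45, adjusted p = 0.0196). By edgeR these 2 genes had 4.15 ± 1.13 and 1.82 ± 0.50, each with an adjusted p of 0.464. In this pair every KO library was above every WT library for 3 of the 27 members tested, Mmp12, Gpnmb and Itgax, and for 2.53% of all genes tested. Gpnmb passed the filter on low counts only through the KO libraries. In females, 0 of 30 members passed on the CD, where 0.0314% of all genes were called, and 0 of 32 on the WD, where 0.0156% were called, with 1 and 3 at an unadjusted p under 0.05 and 0 called by DESeq2 in both. Il1rn was the member under 0.05 on the CD, at 1.46 ± 0.39 higher in KO (unadjusted p = 0.00365, adjusted p = 0.697). Cd163, Ccl2 and Cd79a were those on the WD. Their log2 differences toward KO were 0.70 ± 0.22, 0.96 ± 0.33 and 0.97 ± 0.28 (adjusted p = 0.487, 0.519 and 0.455, edgeR). Ccl2 and Cd79a passed the filter on low counts in this pair only through the KO libraries.

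No member was called by edgeR for a difference of its effects between sexes or genotypes. The diet effect differed between sexes for 0 of 34 members and 0.244% of all genes, with 5 members at an unadjusted p under 0.05 and Il1rn called by DESeq2. The diet effect differed between genotypes for 0 members and 0% of all genes, with 5 at an unadjusted p under 0.05, and the genotype effect differed between sexes for 0 members and 0% of all genes, with 2 at an unadjusted p under 0.05, and DESeq2 called 0 members in both. The diet effect in KO less that in WT was 2.33 ± 0.88 for Mmp12 and 2.18 ± 1.28 for Gpnmb (adjusted p = 0.499 and 0.664), and without replicate 1 of KOM-WD it was 1.62 ± 0.65 and 0.51 ± 0.53 (adjusted p = 0.648 and 0.863).

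The members of a class could also be compared between mice of the same group. The deviation of each library's log2 CPM from its group mean was correlated for 8 pairs of members over the 32 libraries, with permutation within the 8 groups (100000 permutations, two-sided) and adjustment over the 8 pairs. H2-Aa and Cd74 deviated together (Pearson r = 0.97, permutation p = 1e-05, the smallest the permutations can give, adjusted p = 2.67e-05, and Spearman rho = 0.91, permutation p = 1e-05). So did C1qa and C1qb (r = 0.94, rho = 0.89) and Clec4f and Vsig4 (r = 0.91, rho = 0.91), with the same permutation p of 1e-05 for r and for rho. Without the 2 libraries farthest from the median of the first gene these 3 pairs had r = 0.95, 0.89 and 0.89 (n = 30).

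The 2 tested pairs across classes, both with Clec4f, did not pass the test. Other pairs across classes were not tested. Clec4f and H2-Aa had r = 0.17 (permutation p = 0.468, rho = 0.18, permutation p = 0.393), and Clec4f and Cd3e had r = -0.23 (permutation p = 0.249, rho = -0.19, permutation p = 0.333), with adjusted p-values for r of 0.468 and 0.331. Without the 2 farthest libraries these were 0.05 and -0.26. Among the low genes, Cd79a and Ms4a1 had r = 0.48 (permutation p = 0.0275, adjusted p = 0.0551, rho = 0.31, permutation p = 0.133) and 0.51 without 2 libraries, and Cd3e and Cd3g had r = 0.34 (permutation p = 0.1, adjusted p = 0.161, rho = 0.33, permutation p = 0.106) and 0.41. Trem2 and Gpnmb had r = 0.31 (permutation p = 0.341, adjusted p = 0.39, rho = 0.08, permutation p = 0.702), which became -0.17 without 2 libraries. With length offsets Cd3e and Cd3g had r = 0.52 (permutation, adjusted p = 0.0197) and Clec4f and Vsig4 had r = 0.75 (permutation, adjusted p = 0.000373). All libraries share the scaling by total count, and members of a pair were counted in the same library.

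**Figure D5:**
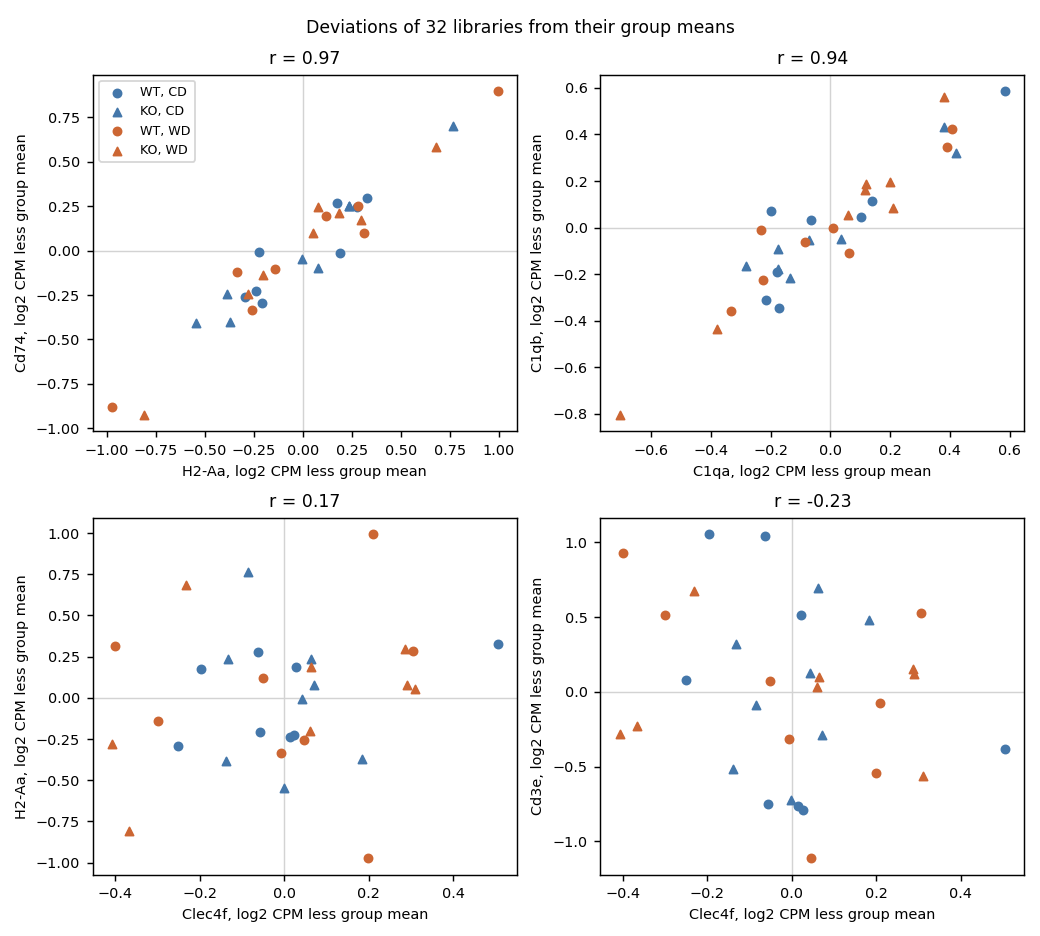
Deviation of log2 CPM from the group mean in the 32 libraries for H2-Aa against Cd74, C1qa against C1qb, Clec4f against H2-Aa and Clec4f against Cd3e, with circles for WT, triangles for KO, blue for the CD and orange for the WD. The upper panels follow a line (r = 0.97 and 0.94), and the lower panels are scattered (r = 0.17 and -0.23).

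Other genes of the same cells and pathways were read against the 8.63% of all genes called higher on the WD and the 15.9% called higher in females. Of 18 other Kupffer and macrophage genes, 10 were called higher on the WD and 0 lower, among them Cybb, a subunit of the phagocyte oxidase (0.55 ± 0.09, adjusted p = 0.000107), the lectin-like receptor Clec1b (0.38 ± 0.08, adjusted p = 0.00071) and the perforin-like Mpeg1 (0.45 ± 0.10, adjusted p = 0.00277). For sex 5 of these 18 were higher in females and 0 lower, with Mertk, a receptor for dying cells, first (0.34 ± 0.05, adjusted p = 8.56e-06). Of 7 other class II pathway genes tested, H2-DMb1 (0.55 ± 0.16, adjusted p = 0.0142) and the lysosomal protease Lgmn (0.28 ± 0.08, adjusted p = 0.0146) rose with the WD. The summed level of the 8 genes of this list had a median of 282 CPM on the CD and 278 CPM on the WD. Of 9 class I pathway genes, the peptide transporter Tap1 (0.22 ± 0.06, adjusted p = 0.0123) and Nlrc5 (0.26 ± 0.09, adjusted p = 0.0464) rose with the WD, while the summed level of the 9 genes had a median of 2651 CPM on the CD and 2587 CPM on the WD.

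Of 9 other T and NK cell genes tested, 6 were higher in females, with Gzmb (granzyme B) at 1.45 ± 0.30 (adjusted p = 0.000399) and Lck at 0.67 ± 0.17 (adjusted p = 0.00313), and 1 of 9, Klrk1, rose with the WD (0.45 ± 0.11, adjusted p = 0.00614). Other B and plasma cell genes were called for diet in 0 of 7 by edgeR, with 2 at an unadjusted p under 0.05, and 4 of 7 were higher in females, with the immunoglobulin genes Igkc at 1.41 ± 0.33 (adjusted p = 0.00195) and Jchain at 1.08 ± 0.33 (adjusted p = 0.0152). All 8 interferon-induced genes were higher in females, led by Ifi44 (0.92 ± 0.13, adjusted p = 1.8e-06) and Oasl2 (0.70 ± 0.11, adjusted p = 1.88e-05), and 0 of the 8 were called for diet by edgeR, with 1 at an unadjusted p under 0.05. Of 8 cytokine and chemokine genes tested, 4 rose with the WD, with Cxcl10 at 0.66 ± 0.16 (adjusted p = 0.00528). Of 7 dendritic cell genes, Clec9a (0.39 ± 0.09, adjusted p = 0.00359) and Flt3 (0.78 ± 0.27, adjusted p = 0.0389) rose with the WD. Of 4 neutrophil genes tested 0 were called for diet or sex by edgeR, with 1 at an unadjusted p under 0.05 in each.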

How the data were processed

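The authors prepared the libraries from liver RNA with the KAPA mRNA HyperPrep kit, sequenced 50-base paired reads and quantified transcripts with Salmon 1.3.0 on the mouse Ensembl annotation of GRCm38, and their own tests used DESeq2 1.28.1. The deposited files, 1 per library, give an estimated count, a TPM value (per the file headers) and an effective length for each transcript. The effective lengths entered only the length offsets, and the deposited TPM values were summed by gene.

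Gene sums of the estimated counts were made with GENCODE vM21 (115973 of 117135 transcripts matched, 35523 genes, with 0.315 to 0.424% of counts outside it), then rounded. Groups came from the sample labels. A gene that reached 10 counts in 4 or more libraries of a fit was tested with edgeR 4.0.16 (R 4.3.3, TMM, quasi-likelihood F test, Benjamini-Hochberg adjustment over all genes tested, threshold 0.05). The model of 8 groups gave the mean diet, genotype and sex effects and 3 differences between effects, and each of 12 pairs of groups was fitted on its own 8 libraries. Standard errors were derived from the log2 fold change and its F value. Co-variation used log2 CPM with a prior count of 0.5. DESeq2 1.42.0 is reported here for the 35 members only, without its share over all genes. Other tools were limma 3.58.1, Python 3.11.15, NumPy 2.4.6, pandas 2.3.3, SciPy 1.17.1 and matplotlib 3.10.9. The steps were tested on simulated data.

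The named genes are the 35 members and, of each further list, the called genes with the smallest adjusted p. Members and lists were chosen with earlier results of these data known. The alternatives were other size factors, DESeq2, length offsets, no filter, the replicate number as a block, the model of all libraries for pairs, and leaving out libraries. No pair of libraries of a group agreed within sampling noise (chi-square of 10.5 to 108 per gene over 48 pairs).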

Additional observations from a re-analysis of the deposited data

Results flagged for a closer look

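A library was set aside for a closer look where its gap to the nearest of the other 3 libraries of its group divided by the group's range exceeded Dixon's critical value for 4 samples. This held in 26 of the 280 combinations of member and group, 21 times for the highest library and 5 times for the lowest, where chance gives about 1 in 20. No explanation for these values was tested.

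In replicate 1 of KOM-WD, 4 lipid-associated macrophage genes were far above the rest of the group. Gpnmb was at 62.7 CPM against 1.31 to 2 CPM, Mmp12 at 55 CPM against 4.17 to 12.3 CPM, Itgax at 12.8 CPM against 2.46 to 3.1 CPM and Trem2 at 5.58 CPM against 0.464 to 0.923 CPM. In replicate 1 of WTF-WD, Itgax was at 4.61 CPM (2.07 to 2.45 in the others), Trem2 at 2.16 CPM (0.583 to 0.775) and Cd9 at 22.7 CPM (18.7 to 19.3).

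In replicate 4 of WTM-CD, Marco was at 12.1 CPM (2.86 to 3.37 in the others), Adgre1 at 28.8 CPM (15.7 to 16.5), C1qa at 51.2 CPM (29.4 to 30.2), C1qc at 48.9 CPM (26.3 to 28.1), Timd4 at 11.1 CPM (6.4 to 6.96) and Cd4 at 3.51 CPM (0.8 to 1.17). In replicate 2 of WTF-WD, Marco was at 30.1 CPM (3.96 to 7.12) and Lyz2 at 159 CPM (69.7 to 79.1). In replicate 3 of KOF-CD, a library with pancreatic transcripts, C1qa was at 61.3 CPM (40.5 to 43.6).

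In replicate 1 of WTF-CD, Ms4a1 was at 4.02 CPM (0.527 to 0.92), Cd4 at 3.15 CPM (0.591 to 0.892) and Clec4f at 98.8 CPM, below the others at 104 to 105 CPM. Replicate 2 of KOM-WD was low for Adgre1 at 17.4 CPM (27.3 to 29.1) and Csf1r at 41.1 CPM (71.5 to 77.5). The other values were Vsig4 at 22.5 CPM in replicate 3 of KOM-CD (29.7 to 30.6), Ptprc at 14.5 CPM in replicate 2 of KOM-CD (18.7 to 19.2), Cd79a at 1.37 CPM in replicate 4 of KOM-CD (0.761 to 0.83), Gpnmb at 0.456 CPM in replicate 1 of KOM-CD (0.21 to 0.249) and Trem2 at 0.712 CPM in replicate 3 of WTM-CD (0.347 to 0.38).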

How the results depend on the processing

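The mean diet effect was called for 14 to 19 members under every alternative and without any 1 library, and the mean sex effect for 8 to 14 without any 1 library. Of the 41 calls, 9 were lost with no filter, 7 with edgeR and length offsets, 7 with the replicate block, 5 without the libraries that stood apart, 3 with DESeq2 and length offsets, 2 with total-count scaling and 0 with DESeq2 or RLE size factors. Without libraries with pancreatic transcripts 6 of 40 were lost, in the model of all 32 libraries 5 of 12, and leaving out single libraries lost 154 of 1024, and none changed direction under any alternative. Total-count scaling and leaving out both libraries that stood apart were chosen after seeing the data.

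The counts for single pairs of groups moved most, and the cause was not tested. No share of all genes is given beside the counts under alternatives. For the diet in WT males, 3 members became 1 with edgeR and length offsets, 1 with the replicate block, 1 in the model of all 32 libraries and 1 with total-count scaling, and 1 to 4 without single libraries. In WT females 0 became 3 with DESeq2, 2 with DESeq2 and length offsets, 2 with no filter and 1 without libraries with pancreatic transcripts, and 0 to 1 without single libraries. In KO males 2 became 6 with DESeq2, 6 with length offsets too, 4 with the replicate block, 8 in the model of all 32 libraries and 4 without the libraries that stood apart, and 0 to 7 without single libraries. In KO females 0 became 2 with DESeq2, 1 with length offsets too and 1 in the model of all 32 libraries, and 0 to 2 without single libraries.

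For genotype in males on the WD, 0 became 2 with DESeq2, 2 with length offsets too and 4 in the model of all 32 libraries. The mean genotype effect had 1 member with DESeq2, 1 with length offsets too and 0 to 1 without single libraries, and the difference of diet effects between sexes had 1 with DESeq2. For sex in WT mice on the CD, 0 became 1 without libraries with pancreatic transcripts and 0 to 1 without single libraries. In WT mice on the WD, 4 became 8 with DESeq2, 2 with no filter, 13 with the replicate block, 2 in the model of all 32 libraries, 10 without libraries with pancreatic transcripts, 10 with total-count scaling, and 1 to 10 without single libraries. In KO mice on the WD, 2 became 6 with DESeq2, 5 with length offsets too and 6 in the model of all 32 libraries, and 0 to 4 without single libraries. Of the 8 pairs of members tested for co-variation, 3 passed, 4 with length offsets, and 3 to 5 without single libraries.

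Libraries with the same replicate number did not deviate together (mean correlation 0.00399 over 112 pairs, against -0.00112 over 336 pairs with other numbers). Single pairs ran from -0.418 to 0.351 with the same number and from -0.329 to 0.359 with other numbers. Whether libraries with the same number shared a litter or a batch was not tested. The 11 members with a median under 13 counts are limited by depth.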
